A study of Mus musculus with 26 samples.

Results

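Glycogen synthesis and breakdown in the mouse liver were followed through 7 genes, Gys2, Ugp2, Gbe1, Ppp1r3b, Ppp1r3c, Pygl and Phka2, out of 22322 gene symbols measured in all 20 RNA libraries. The genes were chosen by name, as enzymes of the glycogen cycle and regulators of its enzymes, and all 7 were found, with 16 transcripts among them. Each gene was represented by its best expressed transcript. In the Bmal1 experiment the glycogen synthase gene Gys2 was 3.06-fold higher at CT12 than at CT0 in control livers. In livers labelled Bmal1 knockout its mean was 45.5 RPKM at CT0 and 38.7 at CT12, beside 47.2 in control livers at CT0. Ppp1r3c, which encodes a subunit that brings protein phosphatase 1 to glycogen, had the opposite pattern, with 0.301 of its CT0 level at CT12 in control livers and 3.98-fold more in livers labelled knockout than in controls at CT12. The phosphorylase gene Pygl and the phosphorylase kinase gene Phka2 did not pass the test in any comparison.

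Liver glycogen is built from UDP-glucose, which Ugp2 makes from glucose 1-phosphate, by glycogen synthase (Gys2) and the branching enzyme (Gbe1). It is broken down by glycogen phosphorylase (Pygl), which phosphorylase kinase switches on and whose liver regulatory subunit is encoded by Phka2. Protein phosphatase 1 opposes that kinase and activates the synthase, and it is held on glycogen by targeting subunits such as those encoded by Ppp1r3b and Ppp1r3c. The liver fills and empties its glycogen store over the day, and the circadian clock, driven by the activator BMAL1 (gene symbol Arntl) and the repressor REV-ERBα (Nr1d1), is known to act on transcription in this tissue.

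Livers came from mice aged 8 weeks that had lived in a cycle of 12 h light and 12 h dark and then spent 2 days in darkness, with food always present. CT0 is the hour at which the lights had previously come on, and CT12 lies 12 h later. The Bmal1 experiment compared C57BL/6 control mice with mice labelled as liver-specific Bmal1 knockouts (n = 3 libraries in each of 4 groups). The Nr1d1 experiment compared C57BL/6 controls with mice labelled Nr1d1 knockout (n = 2 in each of 4 groups), and only its replicate 2 is labelled paired-end. Neither the Cre driver of the Bmal1 deletion nor the allele of the Nr1d1 knockout is stated in the labels. RNA was taken from each liver and the protocols speak of pairs of mice, but no label ties a library to an animal, so that p-values measure the spread between these libraries. Values are RPKM, which scale reads by transcript length and by library depth, so that genes can be compared with each other. In bulk tissue, fewer cells of a type and less RNA per cell cannot be told apart.

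The targeted genes were read first as a check of the labels. Arntl stood at 15.7 to 16.3 RPKM in control livers at CT0 against 5.73 to 7.45 in livers labelled Bmal1 knockout, and at 0.68 to 1.26 against 3.59 to 4.37 at CT12, so that it was lower at CT0 only. RPKM over a whole transcript cannot show a partial deletion. Nr1d1 was not lower in the libraries labelled Nr1d1 knockout, with 1 exception: in replicate 1 it stood at 0.374 in the control and 6.10 in the labelled knockout at CT0 and at 3.45 and 11.1 at CT12, and in replicate 2 at 21.97 and 32.9 at CT0 and at 33.4 and 28.4 at CT12. Arntl, which REV-ERBα is known to repress, was higher in the library labelled Nr1d1 knockout than in its control at CT12 in both replicates, by 2.95 and 3.46 on the log2 scale (limma with the replicate as a block, adjusted p = 0.0395), and differed by -0.14 and -0.98 at CT0. Of the 5 hepatocyte markers checked, all were found in every library, and their sum took 8.14% to 10.3% of all RPKM in control and 5.27% to 7.14% in labelled knockout livers of the Bmal1 experiment. Only Alb among them was called between genotypes (-0.93 at CT0 and -1.05 at CT12), and the other 4 differed by -0.30 to 0.37 at CT0 and -0.22 to 0.25 at CT12. The 7 neutrophil markers summed to 32.2 to 112 RPKM in control and 104 to 219 in labelled knockout livers at CT0, and to 5.94 to 8.80 and 17.8 to 46.3 at CT12. The 5 markers of stellate cells or fibroblasts summed to 88.1 to 102 RPKM in control livers at CT12 and to 112 to 177 in the other 9 libraries. The 5 erythroid markers summed to 160 to 379 in control and 212 to 223 in labelled knockout livers at CT0. At CT12 they summed to 107 to 189 in control and 245 to 306 in labelled knockout livers. The 5 cholangiocyte markers summed to 27.2 to 64.8 RPKM in control and 88.4 to 152 in labelled knockout livers, most of it Spp1. Markers of skeletal muscle, a tissue with its own glycogen enzymes, summed to at most 3.23 RPKM in this experiment, and 4 adipocyte markers to at most 0.256. The part of these marker shifts in the results below was not tested.

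Promoter sequence from RefSeq (build GRCm38.p6) was matched for 5 of the 7 genes; Gys2 and Ppp1r3b were not matched. Windows of 250 bases up to the annotated start were searched on both strands for CACGTG, the E-box that BMAL1 is known to bind, for its variant CACGTT, for AGGTCA, the core of the sites that REV-ERB and ROR receptors share, and for TTATGTAA, the D-box. The Ppp1r3c and Pygl windows are shown because they hold the matches among the 5 genes. Capitals mark the matches, and positions count back from the start, the base just before it being -1. The Ppp1r3c window lies at chr19:36736605-36736854 on the minus strand, and the Pygl window at chr12:70227684-70227933 on the minus strand.
Ppp1r3c: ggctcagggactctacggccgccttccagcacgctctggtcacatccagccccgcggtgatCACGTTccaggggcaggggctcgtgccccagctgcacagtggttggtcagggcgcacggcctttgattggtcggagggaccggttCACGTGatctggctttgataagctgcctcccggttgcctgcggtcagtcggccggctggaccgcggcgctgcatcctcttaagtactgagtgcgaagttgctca
Pygl: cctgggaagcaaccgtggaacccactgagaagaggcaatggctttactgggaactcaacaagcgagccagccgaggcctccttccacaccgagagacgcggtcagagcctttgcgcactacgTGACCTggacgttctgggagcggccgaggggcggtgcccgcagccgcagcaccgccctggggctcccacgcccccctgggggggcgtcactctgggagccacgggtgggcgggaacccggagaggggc
In the Ppp1r3c window, CACGTT lies at -189 to -184 and CACGTG at -104 to -99. In the Pygl window, TGACCT, which reads AGGTCA on the other strand, lies at -128 to -123. Among 32851 windows of the same length, 6.02% hold CACGTG, 3.85% CACGTT, 14% AGGTCA and 0.819% TTATGTAA. A match describes the letters and is not a bound site.

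The synthesis genes are described first. Gys2, the liver glycogen synthase, was measured in control livers at 45.0, 44.1 and 52.4 RPKM at CT0 and at 157, 137 and 140.0 at CT12. The labelled Bmal1 knockout livers had 54.8, 40.5 and 41.2 RPKM at CT0 and at 34.5, 41.4 and 40.2 at CT12. All 3 control livers at CT12 lay far above the other 9 libraries. Labelled knockout values at CT0 overlapped with those of control CT0 and of labelled knockout CT12. Labelled knockout livers at CT12 lay below control livers at CT0 (34.5 to 41.4 against 44.1 to 52.4 RPKM). No share over all genes was computed for that pair of groups. As a background, 10.7% of all genes tested were higher without overlap at CT12 in control livers. Between genotypes at CT12, 8.03% were lower without overlap in the labelled knockout. In the labelled knockout at CT12 Gys2 was at 0.269 of the control level (log2 difference -1.89 ± 0.13 SE, adjusted p = 3.35e-06 by limma over all genes), whereas at CT0 the difference was -0.06 ± 0.13 (95% interval -0.34 to 0.21). Between the times Gys2 rose by 1.61 ± 0.13 in control livers and differed by -0.22 ± 0.13 in labelled knockout livers (adjusted p = 0.365).

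Ugp2 encodes UDP-glucose pyrophosphorylase. In control livers Ugp2 stood at 108, 107 and 133 RPKM at CT0 and at 212, 175 and 146 at CT12. Livers labelled Bmal1 knockout held 234, 175 and 188 RPKM at CT0 and at 155, 196 and 207 at CT12. The control livers at CT0 were the low group and did not overlap with any other. Over all genes tested, 10.8% were higher without overlap in the labelled knockout at CT0, and 10.7% in control livers at CT12. Ugp2 rose by 0.77 ± 0.16 in the labelled knockout at CT0 (adjusted p = 0.0361) and by 0.60 ± 0.16 from CT0 to CT12 in control livers (adjusted p = 0.0341). These comparisons share the control CT0 libraries. The CT0 call was lost without control CT0 replicate 1 or 2, labelled knockout CT0 replicate 1 or 3, control CT12 replicate 2 or labelled knockout CT12 replicate 2 (adjusted p = 0.0514 to 0.148). It had an adjusted p of 0.05, just under the threshold before rounding, without control CT0 replicate 3. The call over time was lost without control CT0 replicate 1 or 2 or control CT12 replicate 1 or 2 (adjusted p = 0.0719 to 0.116), and with no filter on low values (0.0585).

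Gbe1, the branching enzyme, stood in control livers at 50.3, 48.7 and 59.9 RPKM at CT0 and at 72.1, 73.1 and 59.8 at CT12. Its level in livers labelled Bmal1 knockout was 85.1, 42.5 and 52.7 RPKM at CT0 and at 40.7, 34.6 and 43.5 at CT12. At CT12 every labelled knockout liver lay below every control liver, as for 8.03% of all genes tested. Gbe1 fell there by 0.78 ± 0.20 on the log2 scale, to 0.583 of the control level (adjusted p = 0.0324). The call was lost without control CT12 replicate 1 or 2 or any 1 of the labelled knockout CT12 replicates (adjusted p = 0.0546 to 0.114), and with no filter on low values (adjusted p = 0.0597). At CT0 the difference was 0.12 ± 0.20, and over time it was 0.36 ± 0.20 in control (adjusted p = 0.287) and -0.54 ± 0.20 in labelled knockout livers (adjusted p = 0.181).

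**Figure D1:**
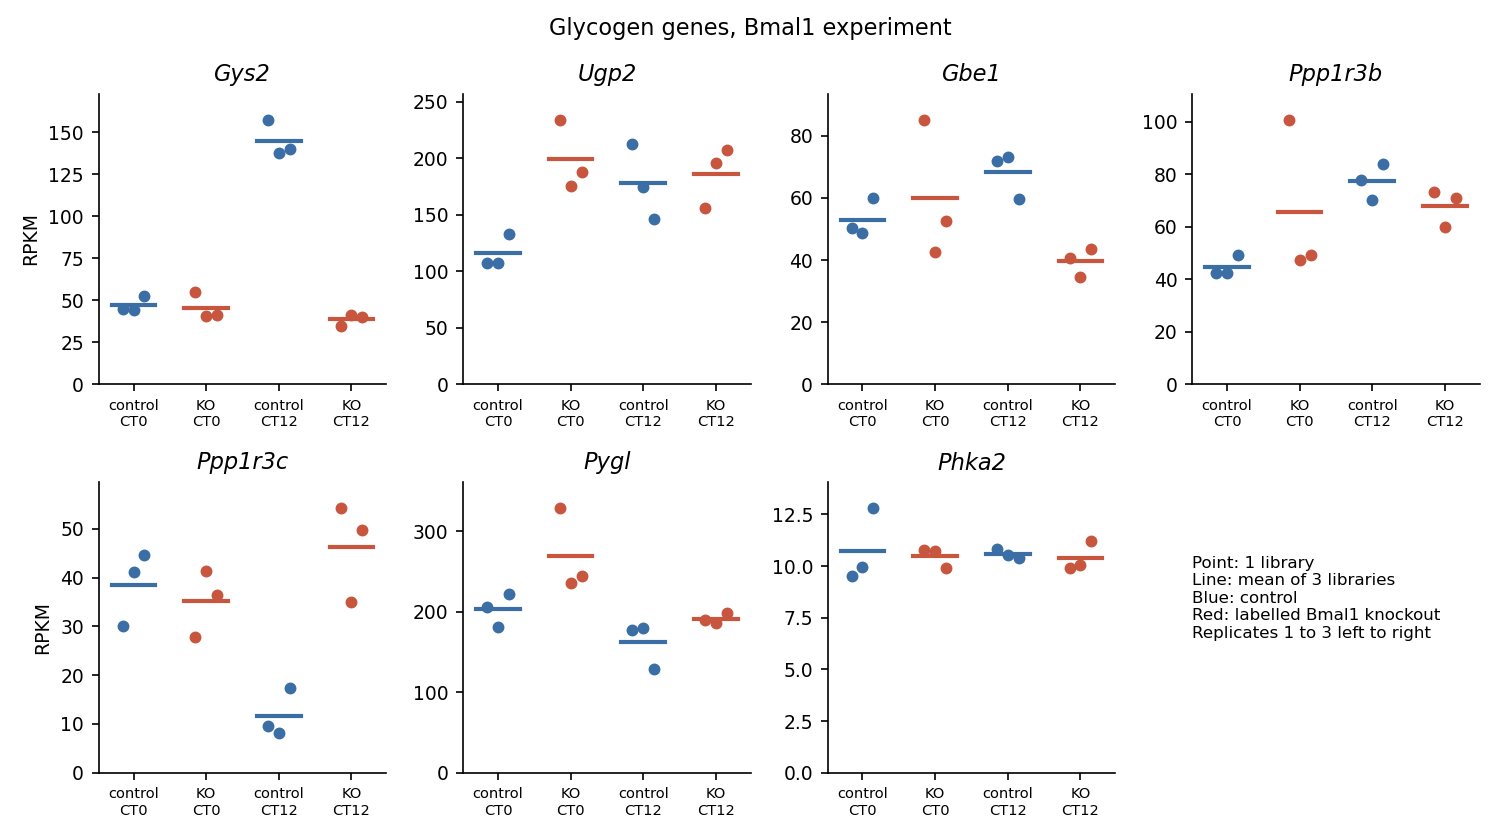
RPKM (vertical axis, from 0) of the 7 glycogen genes in the 12 libraries of the Bmal1 experiment by genotype and time; points are libraries and lines are means of 3 libraries. Gys2 is high in control livers at CT12 alone (137 to 157 RPKM), and Ppp1r3c is low there (8.14 to 17.3 RPKM).

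The targeting subunits of protein phosphatase 1 followed different courses. Ppp1r3c, the glycogen-targeting subunit also called PTG, stood in control livers at 30.1, 41.1 and 44.6 RPKM at CT0 and at 9.62, 8.14 and 17.3 at CT12. With the Bmal1 knockout label it was measured at 27.9, 41.3 and 36.4 RPKM at CT0 and at 54.2, 35.1 and 49.8 at CT12. The control livers at CT12 were below all other libraries, and the other 3 groups overlapped. Without overlap, 22.8% of all genes tested were lower at CT12 in control livers, and 19.9% higher in the labelled knockout at CT12. Ppp1r3c rose by 1.99 ± 0.26 in the labelled knockout at CT12 (adjusted p = 0.000486) and differed by -0.13 ± 0.26 at CT0 (95% interval -0.70 to 0.44). Over time it fell by 1.73 ± 0.26 in control livers (adjusted p = 0.00162) and differed by 0.39 ± 0.26 in labelled knockout livers (adjusted p = 0.455).

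Ppp1r3b encodes GL, the targeting subunit best known from liver. In control livers Ppp1r3b stood at 42.3, 42.4 and 49.1 RPKM at CT0 and at 77.8, 70.0 and 83.9 at CT12. The libraries labelled Bmal1 knockout had 101, 47.3 and 49.4 RPKM at CT0 and at 73.2, 59.9 and 71.1 at CT12. Control livers at CT12 lay above those at CT0 without overlap, as did 10.7% of all genes tested. Replicate 1 of the labelled knockout at CT0 was the highest of all 12 libraries. Ppp1r3b rose by 0.79 ± 0.23 over time in control livers (adjusted p = 0.046), opposite in direction to Ppp1r3c. This call was lost without any 1 of the 6 control libraries or any 1 of the labelled knockout CT12 libraries (adjusted p = 0.056 to 0.141), with no filter on low values (0.079) and without the mean trend (0.0577). Between genotypes Ppp1r3b differed by 0.47 ± 0.23 at CT0 (adjusted p = 0.404) and by -0.18 ± 0.23 at CT12 (95% interval -0.68 to 0.31).

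Neither breakdown gene passed the test in any comparison. Pygl, the liver glycogen phosphorylase, stood in control livers at 206, 181 and 221 RPKM at CT0 and at 177, 179.9 and 129 at CT12. The 3 labelled knockout livers had 328, 235 and 245 RPKM at CT0 and at 189, 186 and 199 at CT12. Labelled knockout livers lay above control livers at both times without overlap, as did 10.8% of all genes tested at CT0 and 19.9% at CT12. The differences of 0.40 ± 0.15 at CT0 (adjusted p = 0.251) and 0.26 ± 0.15 at CT12 (adjusted p = 0.329) did not pass the test. CT12 values also lay below CT0 values without overlap in both genotypes, as did 22.8% of all genes tested in control and 11.2% in labelled knockout livers. The differences were -0.33 ± 0.15 in control (adjusted p = 0.177) and -0.48 ± 0.15 in labelled knockout livers (adjusted p = 0.115). Phka2, the liver regulatory subunit of phosphorylase kinase, kept between 9.53 and 12.8 RPKM in all 12 libraries. Its difference between genotypes at CT12 was -0.03 ± 0.11 (95% interval -0.27 to 0.21), and its difference over time in control livers was -0.01 ± 0.11 (95% interval -0.25 to 0.23).

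Counted together at CT12, 1 of the 7 genes rose (Ppp1r3c) and 2 fell (Gys2 and Gbe1) in livers labelled Bmal1 knockout, where 9.68% of 11439 genes tested were called, 6.46% higher and 3.22% lower. At CT0 1 of 7 rose (Ugp2), against 1.62% of all genes called, 0.909% higher and 0.708% lower. Over time in control livers 3 of 7 rose (Gys2, Ppp1r3b and Ugp2) and 1 fell (Ppp1r3c), against 10.8% of all genes called, 3.4% higher and 7.43% lower. In labelled knockout livers limma called 0 of 7 over time, against 1.9% of all genes (0.909% higher and 0.988% lower), and 2 of 7 (Pygl and Gbe1) had an unadjusted p under 0.05, as did 19.2% of all genes. The median difference over the 7 genes was -0.03 at CT12 and 0.12 at CT0 between genotypes, and 0.36 over time in control livers, beside 0.09, 0.01 and -0.08 over all genes. Under scaling by the median of ratios the higher share of the calls over all genes went from 66.8% to 48.8% at CT12 and from 31.4% to 45.7% over time in control livers, while the 3 and the 4 calls among the 7 genes were the same in number.

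**Figure D2:**
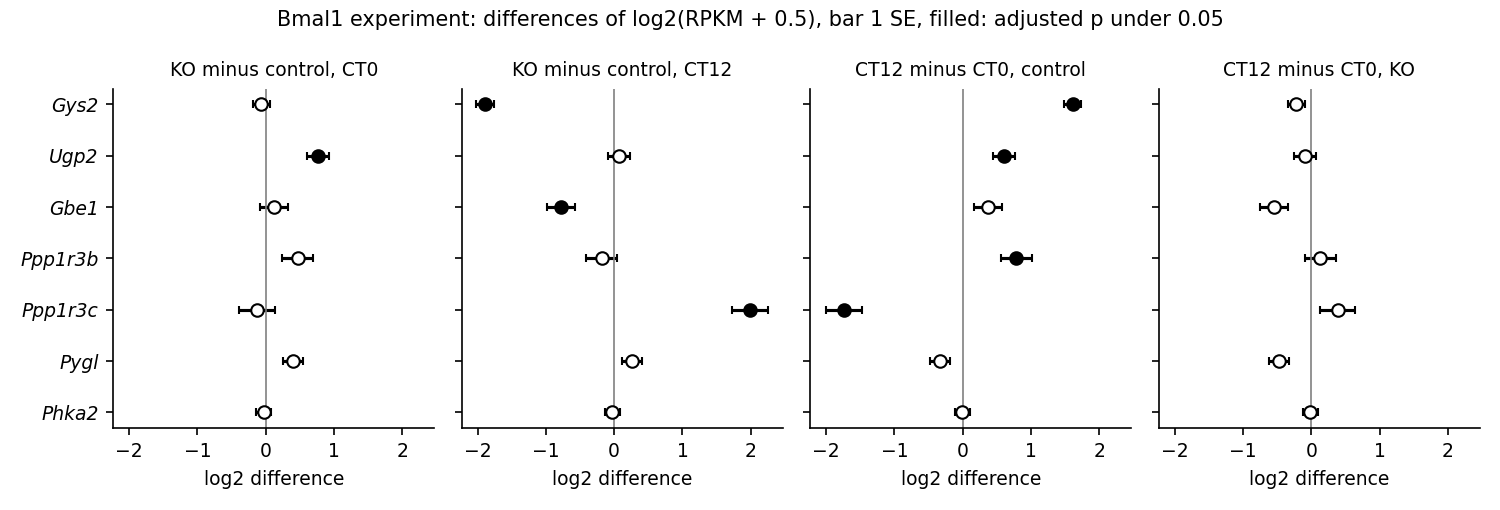
Log2 differences of the 7 genes in 4 comparisons of the Bmal1 experiment on the scale log2(RPKM + 0.5); bars are 1 SE and filled points have an adjusted p under 0.05. Gys2 (-1.89) and Ppp1r3c (1.99) lie on opposite sides at CT12 between genotypes and again over time in control livers (1.61 and -1.73), comparisons that share the control CT12 libraries.

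Whether the time difference itself depended on genotype was tested as an interaction, (labelled knockout CT12 minus CT0) minus (control CT12 minus CT0). Limma called 2 of 7 genes, against 1.31% of all genes, 0.97% higher and 0.341% lower. Gys2 had an interaction of -1.83 ± 0.18 (adjusted p = 0.000374) and Ppp1r3c one of 2.12 ± 0.37 (adjusted p = 0.0164). The Ppp1r3c call was lost without control CT0 replicate 2 or 3, control CT12 replicate 1 or labelled knockout CT12 replicate 3 (adjusted p = 0.0503 to 0.0531). Gbe1 (-0.90 ± 0.29, adjusted p = 0.21), Ugp2 (-0.70 ± 0.23, adjusted p = 0.223) and Ppp1r3b (-0.65 ± 0.32, adjusted p = 0.455) did not pass the test, so the calls these genes have at a single time or in a single genotype are not shown to differ from the other.

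The order of levels showed the same contrast. In control livers at CT0 Pygl had the highest mean RPKM (203 ± 20.3 SD), followed by Ugp2 (116 ± 14.6), and then by Gbe1 (53.0 ± 6.09), Gys2 (47.2 ± 4.55), Ppp1r3b (44.6 ± 3.89) and Ppp1r3c (38.6 ± 7.57), each of which overlapped with the next, with Phka2 lowest (10.8 ± 1.77). In control livers at CT12 Ugp2 (178 ± 33.0), Pygl (162 ± 28.5) and Gys2 (145 ± 10.8) overlapped at the top, and Ppp1r3c (11.7 ± 4.92) was down at the level of Phka2 (10.6 ± 0.226). In livers labelled Bmal1 knockout at CT12, Gys2 (38.7 ± 3.69) was at the level of Gbe1 (39.6 ± 4.53), below Ppp1r3c (46.4 ± 10.0) in mean but overlapping with it.

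Ratios of RPKM within a library do not depend on how libraries are scaled. The ratio of Gys2 to Pygl, synthase to phosphorylase, was 0.219, 0.243 and 0.237 in control livers at CT0 and 0.890, 0.764 and 1.08 at CT12. With the Bmal1 knockout label it was 0.167, 0.172 and 0.168 at CT0 and 0.183, 0.222 and 0.202 at CT12. The ratio was highest in control livers at CT12, and the labelled knockout lay below control without overlap at both times. No share over other ratios was computed. Among single genes, 19.9% at CT0 and 27.9% at CT12 did not overlap between genotypes in either direction. Neither Gys2 nor Pygl was called between genotypes at CT0. For the 2 targeting subunits, the ratio of Ppp1r3c to Ppp1r3b was 0.710, 0.969 and 0.908 in control livers at CT0 and 0.124, 0.116 and 0.206 at CT12. It was 0.278, 0.873 and 0.738 in labelled knockout livers at CT0 and 0.741, 0.586 and 0.701 at CT12. Only the control livers at CT12 stayed below all other libraries of the experiment, and the low value of labelled knockout CT0 replicate 1 came with the highest Ppp1r3b.

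**Figure D3:**
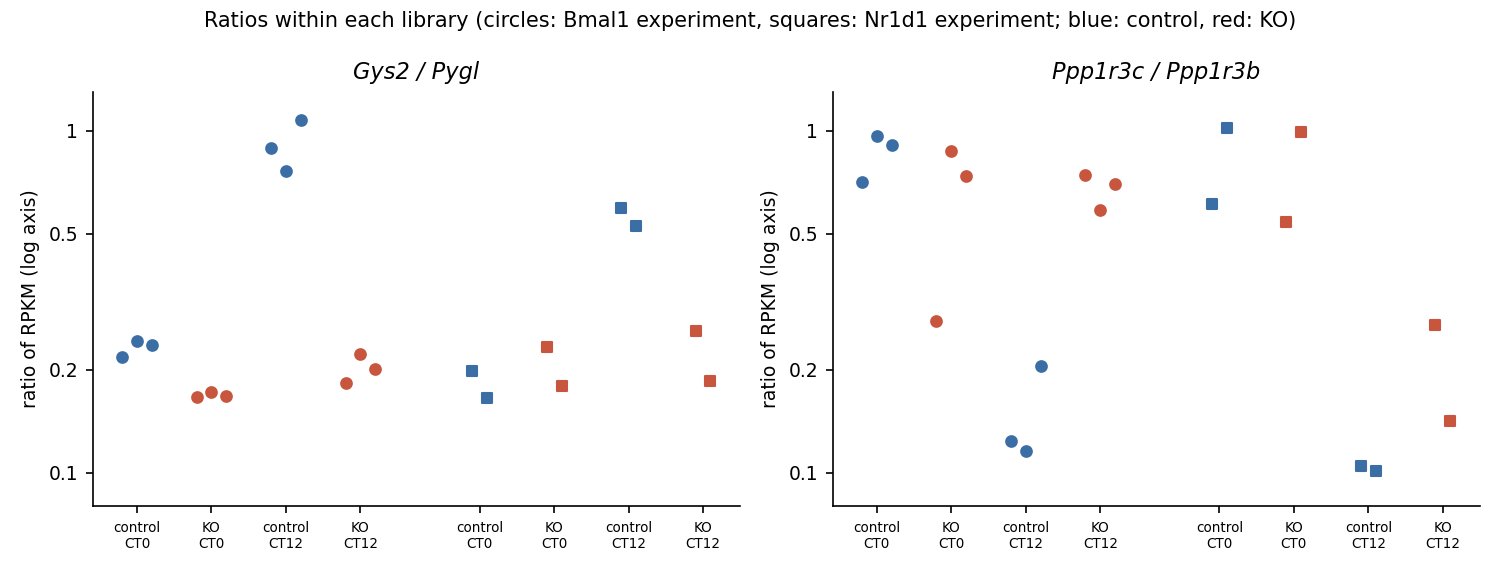
Ratios of RPKM within each library (log axes), Gys2 to Pygl and Ppp1r3c to Ppp1r3b, by genotype and time; circles are Bmal1 and squares Nr1d1 experiment libraries, blue control and red labelled knockout. Control livers at CT12 have the highest Gys2 to Pygl ratios (0.764 to 1.08 and 0.529 to 0.597) and the lowest Ppp1r3c to Ppp1r3b ratios (0.116 to 0.206 and 0.101 to 0.105) of their experiment.

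Around these 7 genes, a list of 32 further genes of glycogen and glucose 6-phosphate handling was followed, of which 31 matched a symbol and 24 were tested in the Bmal1 experiment. In livers labelled Bmal1 knockout at CT12, 3 of 24 rose and 1 fell, against the 6.46% higher and 3.22% lower of all genes. The rises were Gckr (0.76 ± 0.13, adjusted p = 0.00237), Pgm1 as named in these files (0.56 ± 0.13), and Ppp1ca, a catalytic subunit of protein phosphatase 1 (0.49 ± 0.11). The fall was the glucose transporter gene Slc2a2 (-1.30 ± 0.27). The Pgm1 call concerns a low transcript, at 1.44 to 1.88 RPKM in control and 2.44 to 2.94 in labelled knockout livers. Pgm2, as named in these files, stood at 69.3 to 90.3 and differed by -0.19 ± 0.09 (adjusted p = 0.246). The Pgm1 call was lost without control CT12 replicate 3 or labelled knockout CT12 replicate 2 or 3, or when the other 2 groups were left out of the fit, and that of Ppp1ca without control CT12 replicate 2 or labelled knockout CT12 replicate 3 (adjusted p = 0.0547 to 0.0668). The list's median was 0.12, beside 0.09 over all genes.

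At CT0 1 of 24 rose, against 0.909% of all genes called higher. It was Gckr again (0.68 ± 0.13, adjusted p = 0.0204, 0.0507 to 0.101 without control CT0 replicate 1 or 2 or labelled knockout CT0 replicate 1 or 3, and 0.0739 with only the compared groups fitted). Gckr stood at 82.2 to 102 RPKM in control and 128 to 169 in labelled knockout livers at CT0, and at 60.4 to 74.5 and 104 to 123 at CT12. Over time in control livers 1 of 24 rose and 1 fell, against 3.4% of all genes called higher and 7.43% lower. The rise was Slc37a4, which carries glucose 6-phosphate into the endoplasmic reticulum (1.19 ± 0.29, adjusted p = 0.0218), and the fall was Ppp1ca (-0.38 ± 0.11, adjusted p = 0.043). The Slc37a4 call was lost without control CT0 replicate 2 or 3 or control CT12 replicate 1 (adjusted p = 0.0505 to 0.0848). That of Ppp1ca was lost under scaling by the median of ratios (0.0634), with no filter (0.0585), without the mean trend (0.0629), and without any 1 of the 6 control libraries, labelled knockout CT0 replicate 3 or labelled knockout CT12 replicate 2 (adjusted p = 0.0571 to 0.141). In labelled knockout livers over time 1 of 24 rose, against 0.909% of all genes called higher. It was Stbd1, which tethers glycogen to membranes (0.77 ± 0.14, adjusted p = 0.0212, and 0.103 when control livers were left out of the fit). Its adjusted p was 0.0554 to 0.0835 without labelled knockout CT0 replicate 3 or labelled knockout CT12 replicate 1 or 3. Limma called 0 of 24 for the interaction. The muscle-type genes were low, with the synthase Gys1 at 0.528 to 2.15 RPKM and the phosphorylase Pygm at 0.202 to 0.642 in these 12 libraries.

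**Figure D4:**
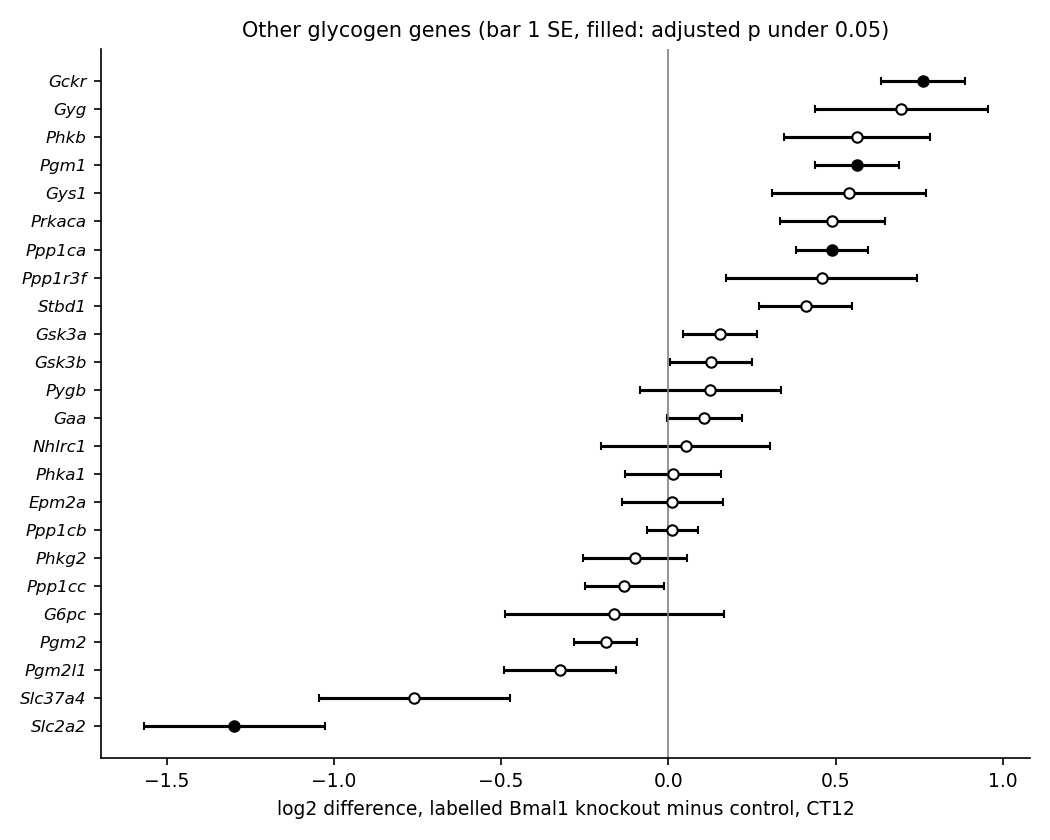
Log2 differences, livers labelled Bmal1 knockout minus control at CT12, of the 24 other glycogen genes tested, ordered by size; bars are 1 SE and filled points have an adjusted p under 0.05. Gckr (0.76) is the largest rise and Slc2a2 (-1.30) the 1 fall among the 4 called.

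The genes most like Gys2 over the 12 Bmal1 libraries were found by the root mean square difference of centred log2 values over 11438 other genes tested. They were Pcsk4 (0.161), Nampt (0.268), Nmrk1 (0.283) and Serpina6 (0.287), against a median of 0.828 over all genes. Nampt and Nmrk1 encode enzymes of NAD synthesis. Mean RPKM in control CT0, labelled knockout CT0, control CT12 and labelled knockout CT12 livers was 11.1, 12.4, 41.9 and 14.9 for Nampt, and 7.02, 9.68, 24.3 and 8.95 for Nmrk1. For Pcsk4, the closest gene, it was 1.21, 0.963, 4.17 and 0.917, and for Serpina6 76.8, 52.2, 185 and 46.8. The genes most like Ppp1r3c were Hsd3b7 (0.346), Crip2 (0.355), Ccdc162 (0.361) and Pnrc1 (0.365), against a median of 0.841. Hsd3b7, an enzyme of bile acid synthesis, had means of 353, 343, 115 and 302 RPKM in the same order of groups. Libraries share their group differences and depth, so the measure describes likeness in these 12 libraries.

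The Nr1d1 experiment had 2 libraries per group, and RPKM summed over genes was 588418 to 875424 in replicate 1 and 2099302 to 2211054 in the paired-end replicate 2, so values are read within a replicate. Gys2 in replicate 1 stood at 37.8 RPKM in the control and 41.0 in the labelled Nr1d1 knockout at CT0, and at 103 and 56.0 at CT12. In replicate 2 it stood at 123 and 93.4 at CT0, and at 338 and 176 at CT12. In both replicates the control at CT12 was the highest of the 4 libraries, and the labelled knockout at CT12 lay between it and the CT0 libraries. The labelled knockout differed from control at CT12 by -0.87 in replicate 1 and -0.94 in replicate 2 on the log2 scale, and at CT0 by 0.12 and -0.39.

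Ppp1r3c in replicate 1 stood at 28.4 RPKM in the control and 25.6 in the labelled Nr1d1 knockout at CT0, and at 4.17 and 16.0 at CT12. In replicate 2 it stood at 97.4 and 45.1 at CT0, and at 9.43 and 24.1 at CT12. The control at CT12 was the lowest library in each replicate. At CT12 the labelled knockout was higher by 1.82 and 1.31 in the 2 replicates, and from CT0 to CT12 Ppp1r3c differed by -2.63 and -3.30 in control and by -0.66 and -0.89 in labelled knockout livers.

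Ppp1r3b, by contrast, was not higher at CT12 in these controls. It stood at 46.3 and 95.9 RPKM in control livers of replicates 1 and 2 at CT0 and at 39.8 and 93.5 at CT12, and in labelled Nr1d1 knockout livers at 47.5 and 45.5 at CT0 and at 59.0 and 169 at CT12. The labelled knockout at CT12 was the highest library of each replicate. Pygl at CT12 stood at 173 and 638 RPKM in control and 216 and 947 in labelled knockout livers of replicates 1 and 2, and Gbe1 at 45.2 and 181 against 57.2 and 215. Both were higher in the labelled knockout at CT12 in each replicate, Pygl by 0.32 and 0.57 and Gbe1 by 0.34 and 0.24, whereas Ugp2 differed by 0.12 and -0.51. For Phka2 the difference was -0.02 and 0.02. Counting signs, labelled knockout minus control at CT12 was positive in both replicates for 4 of 7 genes and negative in both for 1, beside 31% and 23.5% of all 12738 genes tested. At CT0 it was positive in both for 0 and negative in both for 2, with 5 differing in sign, beside 17.8% and 33.2% of all genes. From CT0 to CT12 the difference was positive in both replicates for 4 of 7 and negative in both for 3 in control livers (36.9% and 15.5% of all genes). In labelled knockout livers it was positive in both for 6 and negative in both for 1 (47% and 8.78% of all genes).

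**Figure D5:**
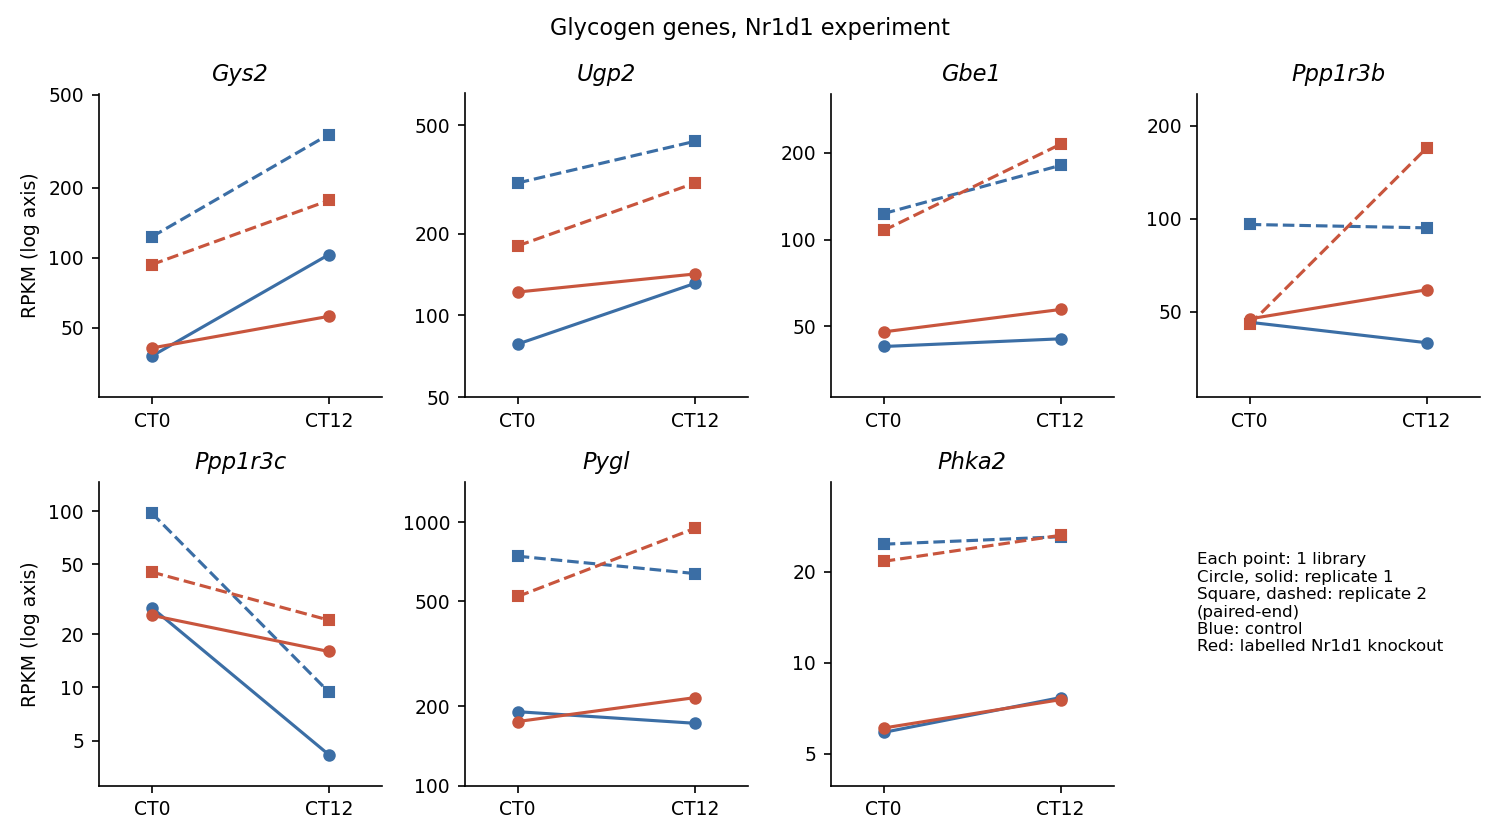
RPKM (log axes) of the 7 genes at CT0 and CT12 in the 8 libraries of the Nr1d1 experiment; circles and solid lines are replicate 1, squares and dashed lines the paired-end replicate 2, blue control and red labelled Nr1d1 knockout. In each replicate the control line of Gys2 climbs and that of Ppp1r3c drops more steeply than the labelled knockout line.

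Without a term for the replicate, limma called 0 of 12738 genes in each of the 5 comparisons of the Nr1d1 experiment, and so 0 of the 7. Per comparison, 0 to 12 genes had an unadjusted p under 0.05. Changes of 1 and 2 on the log2 scale were planted in simulated data for labelled knockout against control at CT12. The fit without the term recovered 0% of either size, so its 0 calls cannot show an absence of change. With the replicate number as a block, 17% and 70% were recovered. In the measured data the blocked limma fit called Gys2 (1.44 ± 0.20, adjusted p = 0.0328) and Ppp1r3c (-2.96 ± 0.28, adjusted p = 0.00687) over time in control livers, against 0.353% of all genes, 0.173% higher and 0.181% lower. With the block and scaling by the median of ratios together, an alternative added after seeing the data, the Ppp1r3c call held (adjusted p = 0.00885) and that of Gys2 did not (adjusted p = 0.0917). Between labelled knockout and control at CT12 the blocked fit called 0.0393% of all genes (0.0314% higher and 0.00785% lower) and 0 of the 7, with 2 of the 7 and 4.55% of all genes at an unadjusted p under 0.05. Ppp1r3c differed by 1.57 ± 0.28 (adjusted p = 0.238) and Gys2 by -0.91 ± 0.20 (adjusted p = 0.416). Over time in labelled knockout livers it called 0.055% of all genes and 0 of the 7, with Gys2 at 0.68 ± 0.20 and Ppp1r3c at -0.78 ± 0.28 (adjusted p = 0.285 and 0.297), and 5 of the 7 and 14.4% of all genes had an unadjusted p under 0.05. The median of all genes in that comparison was 0.16, and 0.06 under scaling by the median of ratios. For the interaction and for labelled knockout against control at CT0 the blocked fit called 0 genes, with 538 (4.22%) and 575 (4.51%) of them, and 4 and 0 of the 7, at an unadjusted p under 0.05. Ppp1r3c had an interaction of 2.187 ± 0.40 (adjusted p = 0.427). Of the 26 other glycogen genes tested here, 0 were called in any comparison with or without the block. The recovery in simulated data limits what this can show.

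The ratio of Gys2 to Pygl within libraries was 0.198 and 0.166 in control livers of replicates 1 and 2 at CT0, 0.597 and 0.529 in control livers at CT12, 0.234 and 0.179 in labelled Nr1d1 knockout livers at CT0 and 0.260 and 0.186 at CT12. The ratio of Ppp1r3c to Ppp1r3b was 0.613 and 1.02 in control livers at CT0 and 0.105 and 0.101 at CT12, and 0.540 and 0.991 in labelled knockout livers at CT0 and 0.271 and 0.142 at CT12. In both experiments the control libraries at CT12 had the highest Gys2 to Pygl and the lowest Ppp1r3c to Ppp1r3b ratios. In the Nr1d1 experiment the labelled knockout at CT12 was nearer to these control libraries on the Ppp1r3c to Ppp1r3b ratio than any CT0 library was. Its replicate 2, at 0.142, was close to their 0.105 and 0.101.

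Recovered reads, fixed only to within a multiplier shared by every library, came to 4.51 M to 7.43 M (M, 1e6 reads) per Bmal1 library, 28.7 M to 49 M in replicate 1 and 91.8 M to 129 M in replicate 2 of the Nr1d1 experiment. The fewest behind a value of the 7 genes in the Bmal1 experiment were 325, for Ppp1r3c, where counting error alone is 5.55% if 1 unit is 1 read. For Gys2 they were 1254 to 6743, and for Pygl 4890 to 13813.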

How the data were processed

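RNA-seq of 20 mouse liver libraries was analysed; the 4C libraries were not used. The deposited tables held RPKM per Ensembl transcript, made by the authors with TopHat2, Bowtie and bedtools 2.19.1 on mm9, per the submitters' processing notes (Bowtie is missing there for the paired-end libraries). Annotation, filters and strand setting: not given in the sources used here. Without strand, reads of overlapping genes cannot be told apart, and transcripts of 1 gene (4 for Gbe1, 5 for Phka2) may share reads. From the deposited RPKM, the best expressed of 46585 shared transcripts was kept per symbol, and log2(RPKM + 0.5) was tested with limma 3.58.1 (R 4.3.3, mean trend) where the mean RPKM was 0.5 or more, with 4 group means per experiment. Tests were two-sided, with Benjamini-Hochberg adjusted p under 0.05 within a comparison called. Adding 0.5 understates folds of low genes, and folds are 2 to the power of these differences. The script was tested on simulated data.

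Members, lists and the rule for named genes (the 7 genes, called genes of the wider list, and the 4 genes most like Gys2 and Ppp1r3c) were chosen with earlier results of these data known. A pair of genes of the wider list is not reported here. Replicate numbers were checked by correlating, across genes, deviations of same-numbered libraries: these were 0.82 to 0.88 in the Nr1d1 experiment, where the number also marks the library type, so blocked values stand beside the others. Reads were recovered from steps in RPKM: 99.4% of 16629 gene transcripts gave whole reads in all Bmal1 libraries within a tolerance of 0.05. At most 0.00612% of values above 0 were identical in a pair of libraries. Alternatives covered the pseudocount, the filter, scaling, the mean trend, the groups fitted, the block and leaving out each library.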

Additional observations from a re-analysis of the deposited data

Results flagged for a closer look

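The effect of time differed between genotypes in the Bmal1 experiment for 2 of the 7 genes, by the interaction term of the limma fit over all 11439 genes. Over all genes, 1.31% were called. For Gys2 the interaction was -1.83 on the log2 scale, from a difference over time of 1.61 in control and -0.22 in livers labelled Bmal1 knockout. For Ppp1r3c it was 2.12, from -1.73 in control and 0.39 in labelled knockout livers. The Ppp1r3c call was lost without control CT0 replicate 2 or 3, control CT12 replicate 1 or labelled knockout CT12 replicate 3 (limma, adjusted p = 0.0503 to 0.0531). All 3 control libraries at CT12 stood on 1 side of the other 9 for each gene, above them for Gys2 and below them for Ppp1r3c. The share of all genes that do so was not computed, and the interaction rests on the same values. The control CT12 libraries also had the lowest summed neutrophil markers of the experiment (5.94 to 8.80 RPKM) and the lowest summed stellate cell or fibroblast markers (88.1 to 102, against 112 to 177 in the other 9). Erythroid markers summed to 107 to 189 RPKM in them and to 245 to 306 in labelled knockout livers at CT12. At CT0 they summed to 160 to 379 in control and 212 to 223 in labelled knockout livers. Between genotypes at CT12 limma called 2 of the 5 higher, Hba-a2 (1.21) and Hbb-b2 (1.24). It also called 2 of 7 neutrophil and 2 of 4 tested cholangiocyte markers higher in that comparison. All 5 erythroid interactions were positive (0.41 to 1.56) and none was called (adjusted p = 0.118 to 0.51). Kupffer cell or macrophage markers summed to 117 to 171 RPKM in control and 122 to 214 in labelled knockout livers at CT12. At CT0 they summed to 187 to 245 and 165 to 238. Endothelial markers summed to 52.7 to 62.8 and 44 to 103 at CT12, and to 78.8 to 97.4 and 90.3 to 103 at CT0. The part of these markers in either result was not tested.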

How the results depend on the processing

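Across alternatives and left-out libraries, 1378 of 1421 values of single genes stayed on their side of the threshold with no reversal of a called value, 37 lost and 3 gained a call, and 3 with no call moved by more than their SE. Most of the 1421 values had no call to lose, including those of the Nr1d1 experiment, so their share does not measure how stable the calls were. All 37 losses fell on calls of Ugp2, Ppp1r3b, Gbe1 and Ppp1r3c in the Bmal1 experiment. At CT12 between genotypes and over time in control livers of the Bmal1 experiment, the calls of Gys2 and Ppp1r3c held in 10 of 10 alternatives and without each of the 12 libraries in turn. At CT0 the 1 call, Ugp2, went to 0 with no filter on RPKM, without the mean trend and with only the compared groups fitted, and to 0 to 1 leaving out a library. Over time in control livers the 4 calls went to 2 with no filter, and to 2 to 4 leaving out a library. The 2 interaction calls went to 1 to 2 leaving out a library. The cause was not tested.

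Calls over all genes moved by over 1.5 times in some settings: 185 at CT0 went to 116 with no filter and 108 with only the compared groups, and 217 over time in labelled Bmal1 knockout livers went to 25 with only the compared groups. Leaving out a library gave 82 to 209 at CT0, 713 to 1242 at CT12, 633 to 1370 over time in control livers, 48 to 232 in labelled knockout livers and 81 to 139 for the interaction.

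In the Bmal1 experiment replicate numbers did not pair the libraries (correlations of -0.06 to 0.12, 5 of 12 libraries closest to their own number). With the replicate number as a block the Ugp2 call at CT0 was lost, leaving 0 of 7 (adjusted p = 0.0653), as was that of Ugp2 over time (0.0548), while Slc37a4 between genotypes at CT12 (-0.76, adjusted p = 0.0487) gained one. In the Nr1d1 experiment the block moved the calls over time in control livers from 0 to 2 of 7, and to 1 with scaling by the median of ratios as well.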

Other observations

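Ppp1r3g encodes a further glycogen-targeting subunit of protein phosphatase 1. Its level was below the filter in both experiments and it was singled out after its values were seen, so it has no test. It stood at 0.289, 0.635 and 0.505 RPKM in control livers at CT12 and at 0.0294, 0.064 and 0.062 in livers labelled Bmal1 knockout. At CT0 it stood at 0.0224, 0.267 and 0.15 in control and at 0.0853, 0.0297 and 0.0369 in labelled knockout livers. Control livers at CT12 were the highest group. Their lowest value, 0.289 RPKM, was close to the highest at CT0, 0.267. Among genes that passed the filter, 10.7% were higher without overlap at CT12 in control livers. In the Nr1d1 experiment Ppp1r3g at CT12 stood at 0.475 and 1.70 RPKM in control livers of replicates 1 and 2 and at 0.101 and 0.527 in labelled knockout livers. At CT0 the control livers held 0.0276 and 0.478 and the labelled knockout livers 0.0291 and 0.201. The skeletal muscle subunit gene Ppp1r3a was at or below 0.0584 RPKM in all libraries.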
